A study of Mus musculus with 9 samples.

Results

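The genes described here are the 8 mouse GIMAP genes on the array (Gimap1, Gimap3, Gimap4, Gimap5, Gimap6, Gimap7, Gimap8 and Gimap9). They were chosen by name. Every probe set whose only gene symbol in the platform gene table was one of these names was taken, which gave 11 of the 45101 probe sets and 8 of the 11671 genes tested. Expression was measured on the Affymetrix Mouse430_2 array in normal mouse thymus, in thymus tumor and in thymus tumor that the labels call XIST resistant, with 3 arrays per group. XIST is the noncoding RNA behind X chromosome silencing, and the design asks how tumor differs from normal thymus and how resistant tumor differs from the other tumors. The sources used here do not give the strain, genotype, age, treatment or origin of the tumors, nor how resistance was scored. Whether each array stands for its own animal is also not stated, and the p-values therefore cover no more than array-to-array spread, which may be technical.

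GIMAP proteins (GTPases of the immunity-associated protein family) are small guanine nucleotide binding proteins, most of which sit on membranes inside lymphocytes. Their genes lie side by side in a single cluster, and they are known for their roles in the survival and quiescence of mature T cells. In the thymus several members increase as thymocytes pass selection and mature, and loss of Gimap5 or Gimap1 in rodents leaves few peripheral T cells. GIMAP transcripts are also found in B cells, natural killer cells and endothelium.

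In the RefSeq annotation of assembly GRCm38.p6 the 8 genes follow each other on chromosome 6 in the order Gimap8, Gimap9, Gimap4, Gimap6, Gimap7, Gimap1, Gimap5, Gimap3, with no other protein-coding gene between them. The long noncoding RNA gene Gm46958 overlaps the start of Gimap9. The RefSeq promoter table held 9 start sites for the 8 genes. Sequence before the first start of 4 of them is shown, because Gimap8 and Gimap6 had the largest falls in tumor among the genes whose tumor signals were not all dim, as defined below, and Gimap1 and Gimap5 the smallest. Each runs 5′ to 3′ on the strand of its gene and stops before the first annotated base of the gene (GRCm38.p6, chr6:48646984-48647185 on the plus strand for Gimap8, chr6:48708245-48708494 on the minus strand for Gimap6, chr6:48738797-48739046 on the plus strand for Gimap1 and chr6:48745947-48746196 on the plus strand for Gimap5). Capitals mark matches to the motifs described next.
Gimap8: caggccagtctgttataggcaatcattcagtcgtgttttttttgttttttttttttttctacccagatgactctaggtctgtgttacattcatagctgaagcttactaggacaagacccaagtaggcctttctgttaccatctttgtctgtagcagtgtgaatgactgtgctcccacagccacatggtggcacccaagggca
Gimap6: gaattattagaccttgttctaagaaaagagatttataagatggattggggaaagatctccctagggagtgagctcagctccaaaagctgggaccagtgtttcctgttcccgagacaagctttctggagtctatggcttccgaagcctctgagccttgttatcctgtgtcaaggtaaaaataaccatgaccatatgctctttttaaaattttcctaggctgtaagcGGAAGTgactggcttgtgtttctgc
Gimap1: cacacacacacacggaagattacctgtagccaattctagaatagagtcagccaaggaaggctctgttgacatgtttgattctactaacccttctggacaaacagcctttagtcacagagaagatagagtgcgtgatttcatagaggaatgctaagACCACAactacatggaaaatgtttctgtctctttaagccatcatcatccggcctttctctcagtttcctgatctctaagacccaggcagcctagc
Gimap5: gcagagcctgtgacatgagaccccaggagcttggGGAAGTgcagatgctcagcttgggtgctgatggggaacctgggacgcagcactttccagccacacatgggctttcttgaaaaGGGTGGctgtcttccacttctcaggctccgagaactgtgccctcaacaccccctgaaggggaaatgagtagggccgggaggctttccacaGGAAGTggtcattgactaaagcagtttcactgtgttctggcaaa

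In the 250 bases before each start, 7 short motifs of factors known in T cells were searched on both strands, and no 2 matches overlapped. The RUNX motif TGTGGT lay before Gimap4, Gimap7 and Gimap1, or 3 of 9 starts, and in 14.0% of 32851 promoters of the same length. The KLF motif CCACCC lay before 5 of 9 starts, those of Gimap9, Gimap4, Gimap5 and Gimap3 and the second start of Gimap8, against 28.1% of all promoters. The ETS motif GGAAGT lay before Gimap6 and Gimap5 (19.7% of all promoters), the E protein motif CACCTG before Gimap9 (17.2%) and the forkhead motif TGTTTAC before Gimap3 (3.17%). Neither the TCF and LEF motif CTTTGA (13.8% of all promoters) nor the GATA motif AGATAA (9.99%) had a match, which says only that these letters are not in these windows. None of the 7 motifs was present before more than 5 of the 9 starts. CpG dinucleotides numbered 1 to 8 per window with a median of 3, against a median of 6 over all promoters, and the highest count was before Gimap9. GC content was 43.6% to 61.2%, with a median of 52.4% over all promoters. These matches describe the letters and were not tested.

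All values are MAS5 signals in arbitrary units, and signals of different probe sets are not comparable as levels because probes differ in efficiency. Array medians were 13.9 to 25.8. The arrays split by the poly-A spike-in controls added before labelling: in 4 arrays (replicate 1 of each group and replicate 2 of resistant tumor) the mean spike-in signal was 2.01 to 2.95 and the array medians were 23.6 to 25.8, while in the other 5 they were 141 to 237 and 13.9 to 17.8. Each spike-in set held all 3 groups, with 1 or 2 arrays per group, so changes within a set have no test. A probe set under the median of its array is called dim here, and where it was dim on all 3 arrays of a group its change is a lower bound ("at least"). With 3 arrays per group, precision is limited by their number.

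Every GIMAP gene was lower in both tumor groups than in normal thymus, with no overlap between the arrays of the groups (non-overlapping and lower in 25.2% and 25.7% of all genes tested). In the fit without a filter on low signals all 11 probe sets fell in tumor and all 11 in resistant tumor (limma adjusted p under 0.05), where 10.3% and 10.5% of 34945 probe sets fell. At the level of genes 8 of 8 fell in each comparison, where 19.1% and 20.2% of the 11671 genes tested fell. In that fit the GIMAP genes had a median log2 change of -2.73 in tumor and -2.60 in resistant tumor, and all genes tested had medians of 0.05 and 0.06. With dim genes at their lower bound, as defined above, the GIMAP medians were -2.51 and -2.48. Of the 11 probe sets 10 passed the filter used for the gene fit, and Gimap7 and Gimap3 passed it through their 3 normal thymus arrays, so their calls in that fit are no separate support. All 8 genes were also called with no filter. In bulk tissue fewer cells of a type and less RNA per cell cannot be told apart.

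**Figure D1:**
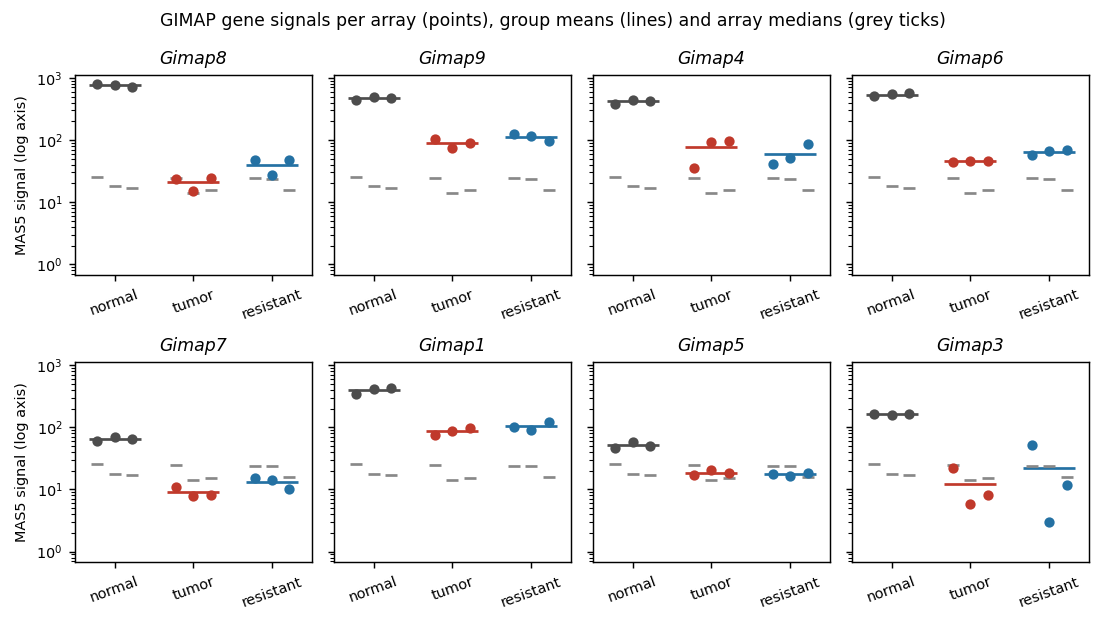
MAS5 signal on a log axis for each GIMAP gene, by its brightest probe set. Points are single arrays, coloured lines are group means (n = 3 arrays) and grey ticks are the median signal of each array; in all 8 panels the normal thymus points lie above both tumor groups, while signals of Gimap8, Gimap7, Gimap5 and Gimap3 lie near or under the array medians in tumors.

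Among the genes whose tumor signals were not all dim, the largest fall in tumor was that of Gimap8, which encodes an unusually long family member with several GTPase domains. Its signal was 807, 772 and 705 in the normal thymus arrays, 23.9, 15.2 and 24.7 in tumor, and 47.0, 26.8 and 46.8 in resistant tumor. The tumor arrays lay at 2.80% of the normal mean and the resistant tumor arrays at 5.28%, and the lowest resistant tumor array was just above the highest tumor array. These arrays, resistant tumor 2 and tumor 3, were of different spike-in sets. Their array medians were 23.6 and 15.4, so their order may depend on the scaling. The log2 change against normal thymus was -5.19 ± 0.26 in tumor (standard error over 3 arrays a group, adjusted p = 8.90e-07 by limma) and -4.29 ± 0.26 in resistant tumor (adjusted p = 3.11e-06). In tumor this change ranked within the lowest 0.617% of all genes tested. The tumor signals lay near the medians of their arrays, which were 24.8, 13.9 and 15.4. With an offset of 50 before the log, the change in tumor was -3.51.

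Gimap6, a cytosolic member that binds the autophagy protein GABARAPL2, had signals of 504, 542 and 567 in normal thymus. In tumor they were 44.2, 46.0 and 46.4, and in resistant tumor 57.9, 65.2 and 70.1. Within tumor, though not in the other groups, this gene was the most evenly measured of the family by its brighter probe set, with an SD of 2.63% of the mean. Its log2 change was -3.56 ± 0.13 in tumor (adjusted p = 1.59e-07) and -3.06 ± 0.13 in resistant tumor (adjusted p = 5.05e-07). A second, dimmer probe set of Gimap6 read 208, 83.5 and 79.1 in normal thymus, where the first value is from the array without spike-ins. It was dim on all 6 tumor arrays, at least 6.36-fold lower in tumor and at least 5.36-fold lower in resistant tumor (adjusted p = 0.00265 and 0.00537 among all probe sets).

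Gimap4, which promotes the death of T cells once apoptosis has begun, is measured by 2 probe sets. The brighter one, whose name marks it as able to match more than 1 transcript, read 373, 446 and 428 in normal thymus, 35.6, 94.2 and 97.6 in tumor and 41.1, 51.0 and 85.2 in resistant tumor. Within the tumor groups its low values were those of the arrays without spike-ins. The log2 change was -2.59 ± 0.39 in tumor (adjusted p = 0.000572) and -2.88 ± 0.39 in resistant tumor (adjusted p = 0.000311). In the arrays lacking spike-ins and in those with them the change was -3.39 and -2.19 in tumor, and -3.03 and -2.36 in resistant tumor. The other probe set read 179, 149 and 137 in normal thymus, 39.5, 44.0 and 41.3 in tumor and 42.0, 38.7 and 29.9 in resistant tumor. In tumor its values differed little. In normal thymus and resistant tumor its lowest values were instead those of arrays with spike-ins. Its log2 changes were -1.89 ± 0.17 and -2.08 ± 0.17 (adjusted p = 0.000195 and 0.000131 among all probe sets).

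Gimap1, an endoplasmic reticulum and Golgi member needed by mature T and B cells, had signals of 348, 418 and 436 in normal thymus. They were 75.7, 88.1 and 97.4 in tumor and 102, 91.8 and 122 in resistant tumor. Tumor thus kept 21.7% of the normal mean and resistant tumor 26.3%, with log2 changes of -2.20 ± 0.16 (adjusted p = 7.06e-06) and -1.93 ± 0.16 (adjusted p = 1.68e-05). Gimap9 moved by a similar amount. Its signals were 442, 498 and 482 in normal thymus, 105, 73.4 and 89.2 in tumor, and 125, 117 and 94.5 in resistant tumor. Its log2 change was -2.42 ± 0.16 in tumor (adjusted p = 4.84e-06) and -2.09 ± 0.16 in resistant tumor (adjusted p = 1.20e-05). Both genes stayed above the array median on all 9 arrays, so neither change is a bound.

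Gimap5 and Gimap3 are close relatives. Gimap5 sits on lysosomes and its loss in rats and mice causes T cell lymphopenia, and Gimap3 is a rodent gene related to it. The probe set of Gimap5 was dim in general, at 46.8, 58.1 and 50.5 in normal thymus, 16.9, 20.2 and 18.6 in tumor and 17.5, 16.5 and 18.3 in resistant tumor. Only 2 tumor arrays and 1 resistant tumor array reached their medians. Its log2 changes, -1.48 ± 0.23 in tumor (adjusted p = 0.000784) and -1.57 ± 0.23 in resistant tumor (adjusted p = 0.000561), were the smallest of the family in both comparisons, on a probe set close to the array medians. Setting the array medians equal lost its call in tumor among all probe sets (adjusted p = 0.0794) but not among genes (adjusted p = 0.0417).

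Gimap3 had the widest spread of the family. It read 166, 155 and 162 in normal thymus, 22.3, 5.86 and 8.04 in tumor and 52.7, 2.96 and 11.7 in resistant tumor. The highest resistant tumor array was 17.8 times the lowest, although all 6 tumor arrays were below every normal array. Gimap3 was dim on all 3 tumor arrays without the resistant label and at least 9.22-fold lower there (adjusted p = 0.00528, or 0.0194 in the fit of all probe sets without a filter). Its log2 change in resistant tumor was -3.72 ± 0.88 (adjusted p = 0.00757, or 0.0258 in the fit of all probe sets), or -4.78 without resistant tumor 1 and -2.70 without resistant tumor 2. Among all probe sets the call of Gimap3 in tumor was lost without any 1 of normal thymus 1, 2 or 3, tumor 2 or tumor 3 (adjusted p = 0.0586, 0.0636, 0.0632, 0.0723 and 0.0685). In resistant tumor it was lost without any 1 of normal thymus 1, 2 or 3 or resistant tumor 2 or 3 (adjusted p = 0.0688, 0.0803, 0.0801, 0.0542 and 0.0642).

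Gimap7, a member whose GTPase becomes active when it pairs with itself or another GIMAP, has 2 probe sets, both low. The brighter read 60.9, 68.9 and 64.2 in normal thymus, 10.9, 7.88 and 7.995 in tumor and 15.4, 13.9 and 10.3 in resistant tumor. It was dim on all 6 tumor arrays. It was at least 3.70-fold lower in tumor (adjusted p = 6.68e-05, or 0.000297 in the fit of all probe sets without a filter). In resistant tumor it was at least 3.12-fold lower (adjusted p = 0.000257, or 0.000895 in the fit of all probe sets). The other probe set was dim on all 9 arrays, at 25.5, 15.9 and 16.8 in normal thymus and 0.285 to 1.98 in the tumor groups, so it gives no fold.

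Gimap3 and Gimap7, with only a lower bound in tumor, have no place in an order of the changes. Ordered by the log2 change in tumor, the other 6 genes ran Gimap8, Gimap6, Gimap4, Gimap9, Gimap1 and Gimap5. The 95% interval of Gimap8 (-5.77 to -4.61) overlapped none of the other 5. The interval of Gimap6 (-3.85 to -3.27) overlapped only that of Gimap4 (-3.45 to -1.72). Gimap4, Gimap9 (-2.79 to -2.06) and Gimap1 (-2.56 to -1.84) could not be ordered beyond their intervals. The interval of Gimap5 (-2.00 to -0.96) overlapped those of Gimap4 and Gimap1, so it could not be ordered from these either. Differences between members were not tested. Within the arrays without spike-ins all 8 genes were lower in tumor, with changes from -5.07 to -1.47, and within the arrays with spike-ins they were lower with changes from -5.25 to -1.48. For resistant tumor the ranges within the sets were -4.51 to -1.46 and -3.98 to -1.57.

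The protein-coding genes next to the cluster were compared in the same way, and 1 of the 6 tested, Lrrc61, fell. That is near the share of all genes tested that fell, 19.1% in tumor and 20.2% in resistant tumor. Of 5 such genes on each side, 8 of 10 had a probe set and 6 were bright enough to be tested. Beyond Gimap3, the immediate neighbour Tmem176b, which encodes a membrane protein of antigen-presenting cells, read 496 to 553 in normal thymus, 470 to 536 in tumor and 394 to 623 in resistant tumor. Its log2 change was -0.04 ± 0.16 in tumor (adjusted p = 0.884) and -0.02 ± 0.16 in resistant tumor (adjusted p = 0.948). Tmem176a, the gene after it, changed by 0.11 ± 0.15 and 0.32 ± 0.15 (adjusted p = 0.609 and 0.123). On the side of Gimap8, Zfp775 changed by -0.33 ± 0.22 and -0.12 ± 0.22 (adjusted p = 0.261 and 0.685). Repin1, a zinc finger gene, changed by 0.55 ± 0.21 in tumor (adjusted p = 0.0565) and rose by 1.44 ± 0.21 in resistant tumor (adjusted p = 0.000478). Rarres2, the chemerin gene, changed by 1.30 ± 0.60 and 0.95 ± 0.60 (adjusted p = 0.108 and 0.229). Lrrc61 fell in both tumor groups, with changes of -0.82 ± 0.14 and -1.04 ± 0.14 (adjusted p = 0.00131 and 0.000336). Differences between neighbours and GIMAP genes were not tested. Aoc1 and Doxl1 were under the filter on low signals.

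**Figure D2:**
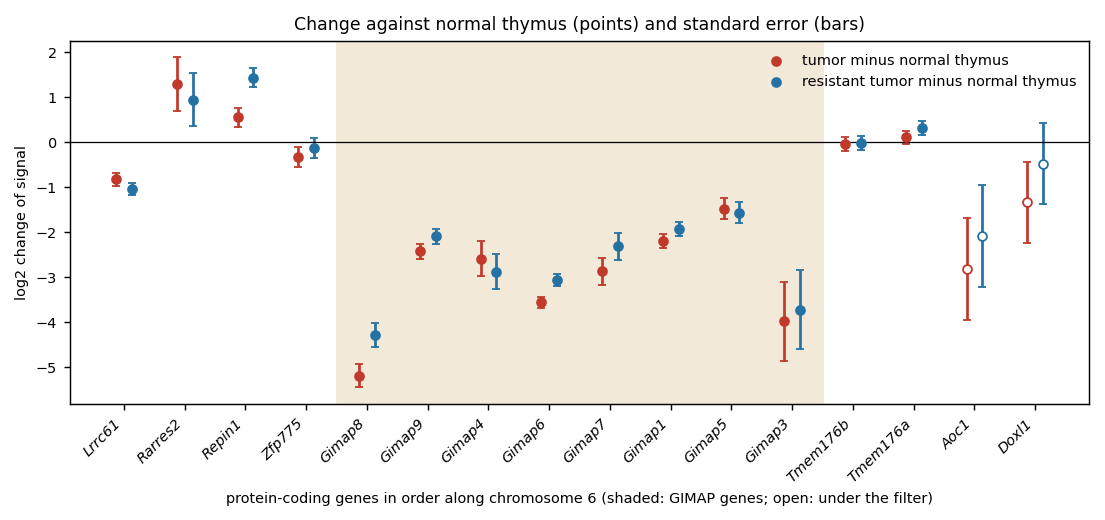
Log2 change against normal thymus for tumor and resistant tumor (points) with the standard error (bars), for the GIMAP genes (shaded) and their protein-coding neighbours in gene order along chromosome 6; open points are genes under the filter on low signals. The 8 GIMAP genes lie between -5.19 and -1.48, and the 6 neighbours with filled points between -1.04 and 1.44; the tumor values of Gimap3 and Gimap7 and the resistant tumor value of Gimap7 rest on dim signals and are not sizes of change.

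Between resistant tumor and tumor no GIMAP gene was called. By limma 0 of 8 genes passed an adjusted p of 0.05 (42 of all genes, or 0.360%) and 0 of 11 probe sets did (0.0229% of all probe sets). Of the genes, 2 of 8 had an unadjusted p under 0.05, as 7.23% of all genes had. These 2 were Gimap8 and Gimap6, the genes whose arrays did not overlap between the tumor groups, as was so for 10.4% of genes. Gimap8 differed by 0.90 on the log2 scale with a 95% interval of 0.32 to 1.48 (adjusted p = 0.297), and by 0.57 in the arrays lacking spike-ins and 1.27 in those with them. Gimap6 differed by 0.50 with an interval of 0.21 to 0.78 (adjusted p = 0.224), and by 0.48 and 0.60 within the sets. With spike-in set added as a block, Gimap6 passed the test (0.54 ± 0.11, adjusted p = 0.0443), in a fit that called 1.23% of genes, and Gimap8 did not (0.90 ± 0.26, adjusted p = 0.151). In the fit of all probe sets with the same block, no GIMAP probe set passed. The second Gimap6 probe set was dim on all arrays of both tumor groups. The sign of its measured difference turned between the sets, from -0.44 in the arrays lacking spike-ins to 0.63 in the others.

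For 4 other genes the interval of the difference between the tumor groups included 0. Gimap9 differed by 0.34 (interval -0.03 to 0.70), and by 0.21 and 0.22 in the arrays lacking and carrying spike-ins. Gimap1 differed by 0.27 (-0.08 to 0.63), and by 0.36 and 0.40 in the sets. For these genes the direction was the same in both sets. For Gimap5 the difference was -0.09 (-0.61 to 0.43), with 0.005 and -0.08 in the sets. For Gimap4 it was -0.29 (-1.16 to 0.57), but 0.36 and -0.17 in the sets and -0.008 with the set as a block. The direction for Gimap4 and Gimap5 thus turned between the sets. No difference in size is given for Gimap7, dim on all 6 tumor arrays, or for Gimap3, dim on 5 of the 6. The sign of the measured difference of Gimap3 also turned between the sets, from -0.84 in the arrays lacking spike-ins to 0.76 in the others. Both comparisons with normal thymus share the same normal arrays.

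**Figure D3:**
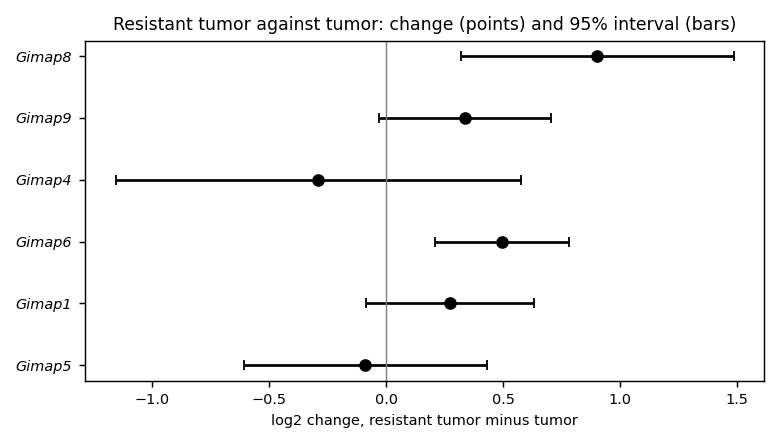
Log2 change in resistant tumor minus tumor (points) for the 6 GIMAP genes with tumor signals that were not all dim, with its 95% interval (bars), n = 3 arrays per group. The intervals of Gimap8 (0.32 to 1.48) and Gimap6 (0.21 to 0.78) lie above 0, before any adjustment for the number of genes, and the others include 0.

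The genes whose values over the 9 arrays were most like the mean GIMAP profile were found by the root mean square difference of log2 signals centred on each gene. That difference was 1.44 for the median gene and 0.29 to 1.05 for the GIMAP genes themselves. The closest gene was Ms4a6b, a membrane protein gene of T cells, at 0.15, with signals of 464 in normal thymus, 50.3 in tumor and 59.5 in resistant tumor (means of 3 arrays). It was followed by Hivep2, a zinc finger transcription factor gene, at 0.18, and by S100a1, a calcium-binding protein gene, also at 0.18. Hemgn, Dhrs3 (a retinal reductase gene), Sgk3 (a kinase gene), Parm1 and Glipr1 had differences of 0.20 to 0.22. In these 8 genes the log2 change in tumor was -3.24 to -2.71 and in resistant tumor -2.98 to -2.40. The measure is set mostly by the step between normal thymus and the tumor groups, and the genes were chosen by it, so their changes are no test.

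**Figure D4:**
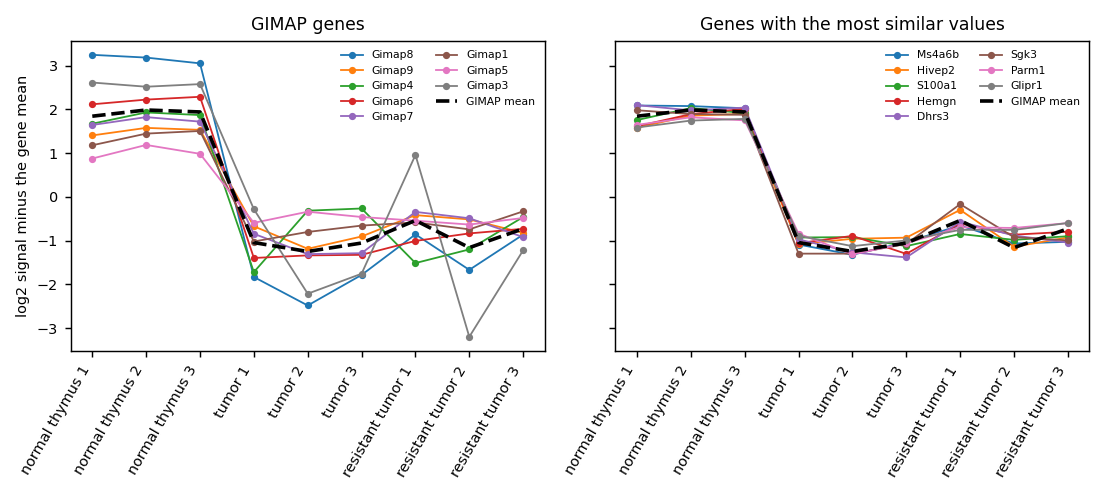
Log2 signal minus the mean of each gene over the 9 arrays, for the 8 GIMAP genes (left) and the 8 genes closest to their mean profile (right), with the GIMAP mean dashed; lines only join the values of 1 gene, since arrays of a group have no order. The GIMAP mean lies at 1.84 to 1.99 in normal thymus and at -1.25 to -0.54 in the tumor groups, and Gimap3 departs most from it.

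Counts of list members are to be read against all genes tested, of which 19.1% fell and 23.3% rose in tumor and 20.2% fell and 23.1% rose in resistant tumor. Among other genes of naive T cell quiescence and egress, 18 of 22 tested fell and 1 rose in tumor, with the same counts in resistant tumor, at a median log2 change of -1.26 and -1.65. The genes called were not all the same: Itgb7 fell only in tumor and Foxp1 only in resistant tumor. The egress receptor gene S1pr1 was called in neither (-0.75 ± 0.39 and -0.39 ± 0.39, adjusted p = 0.149 and 0.443). These 3 are named after their values were seen. Cd5 and Cd6 also stand among the T cell markers below. Cd6 and Ms4a4b, a scavenger receptor and a membrane protein of T cells, had tumor signals at least 22.7-fold and 20.3-fold below normal thymus (adjusted p = 3.65e-05 and 4.44e-05). The coreceptor gene Cd5 had a log2 change of -5.05 ± 0.35 (adjusted p = 5.23e-06), and Ccr7, a homing receptor of naive T cells, was at least 4.96-fold lower (adjusted p = 0.000773). Cd6, Ms4a4b and Ccr7 were dim on all arrays of both tumor groups. They passed the filter only through normal thymus, so their calls are no separate support. The gene that rose was Lef1, a transcription factor of T cell development (0.94 ± 0.20, adjusted p = 0.00459), named after its value was seen. Interferon-inducible GTPases, which are other immune GTPases, fell in 7 of 11 cases in each comparison and none rose. The genes called differed: Iigp1 fell only in tumor, and Gbp2, named after its value was seen, only in resistant tumor. The log2 change in tumor was -5.58 ± 0.25 for Gbp8, -3.50 ± 0.17 for Gbp6, -1.44 ± 0.15 for Irgm2 and -1.05 ± 0.34 for Iigp1 (adjusted p = 5.18e-07, 8.03e-07, 7.81e-05 and 0.0302).

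Genes of proteins that GIMAPs are reported to bind or act with, together with autophagy genes, numbered 23 tested. In tumor 4 fell and 3 rose, with a median of -0.15, and 4 of 23 is near the share of all genes that fell. In resistant tumor 7 fell and 2 rose, with a median of -0.22. Bcl2l1, which encodes the antiapoptotic protein BCL-XL, had log2 changes of -1.97 ± 0.17 in tumor and -1.86 ± 0.17 in resistant tumor (adjusted p = 1.74e-05 and 2.60e-05). Gabarapl2, the partner of Gimap6, changed by -0.80 ± 0.14 and -0.86 ± 0.14 (adjusted p = 0.00158 and 0.00106). Bcl2l11, the proapoptotic BIM gene, changed by -0.57 ± 0.16 and -0.68 ± 0.16 (adjusted p = 0.0175 and 0.00747), and Myc rose by 1.27 ± 0.12 and 0.98 ± 0.12 (adjusted p = 4.34e-05 and 0.000219). Named after their values were seen, Mcl1 also fell in tumor, and Hspa8 and Ctnnb1 also rose. In resistant tumor, likewise named, Hspa8 also rose, and Mcl1, Gsk3b, Nfatc1 and Map1lc3a also fell. Between the tumor groups no gene of these 3 lists was called by limma.

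Markers of the cell types that carry GIMAP transcripts moved in both directions between normal thymus and tumors, beside 19.1% of all genes lower and 23.3% higher in tumor and 20.2% and 23.1% in resistant tumor. Sums of marker signals follow the brightest probe sets. Of T cell markers 8 of 12 fell in each comparison and none rose, and their summed signal was 15525 to 16903 in normal thymus, 11072 to 12973 in tumor and 9920 to 12363 in resistant tumor. Of the genes of the CD3 complex, which defines T cells, Cd247, the zeta chain gene, fell from a mean of 905 in normal thymus to 251 in tumor and 220.1 in resistant tumor (log2 changes -1.85 ± 0.10 and -2.04 ± 0.10, adjusted p = 1.62e-06 and 1.35e-06). The other 3, Cd3e, Cd3g and Cd3d, did not pass the test in tumor, and all 4 are named after their values were seen. Cd3e read 1393 in normal thymus and 1588 in tumor, Cd3g 1954 and 2320, and Cd3d 2662 and 2491 (means of 3 arrays, adjusted p = 0.316, 0.129 and 0.611). In resistant tumor the means of these 3 were 1373, 2111 and 2181 (adjusted p = 0.851, 0.522 and 0.101). Between the tumor groups Trat1, a T cell receptor adaptor gene, was the only gene called in any of the 14 lists (1.63 ± 0.20, adjusted p = 0.0116). Markers of the double-positive stage, at which thymocytes carry both CD4 and CD8, fell in 9 of 11 cases in each comparison, from a sum of 19856 to 21332 to 7866 to 8390 in tumor and 6835 to 8712 in resistant tumor. Among the markers that fell, Cd2, Cd6, Cd8a and Cd8b1, named after their values were seen, were dim on all arrays of both tumor groups. They passed the filter only through normal thymus, so their calls are no separate support.

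Other cell types that can carry GIMAP transcripts were also measured. B cell markers fell in 5 of 6 cases in tumor (Cd79a, Cd79b, Ms4a1, Cd22 and Blk) and in 2 in resistant tumor (Cd79b and Fcmr). Their sum was 311 to 331 in normal thymus, 53.4 to 136 in tumor and 79.7 to 120 in resistant tumor, and Pax5, Ebf1 and Cr2 were under the filter on low signals. Of natural killer and cytotoxic markers 4 of 7 fell and 1, Gzma, rose in each comparison, the 4 being Klrd1, Nkg7, Ccl5 and, in tumor, Gzmb or, in resistant tumor, Tbx21. Their sum was 1218 to 1351 in normal thymus, 1197 to 2097 in tumor and 2482 to 3587 in resistant tumor. Gzma made up most of it, and the other 6 markers summed to 440.1 to 620 in normal thymus, 49.8 to 71.1 in tumor and 54.8 to 93.4 in resistant tumor, while Ncr1, Klrk1, Eomes and Fasl were under the filter. Endothelial markers rose in 6 of 14 cases in tumor and 7 in resistant tumor and fell in 1, Pecam1, with a sum of 598 to 643 in normal thymus, 814 to 1090 in tumor and 879 to 1246 in resistant tumor. Of immature thymocyte markers Notch1, Hes1, Dtx1 and Ptcra rose and Bcl11a fell, 5 of 12, in each comparison. Cd79a, Cd79b, Ms4a1, Klrd1, Nkg7 and Bcl11a were dim on all arrays of both tumor groups. They passed the filter only through normal thymus, so their calls are no separate support. In tumor the median log2 change was -2.54 for B cell markers and -1.55 for natural killer and cytotoxic markers. With dim genes at their lower bound these medians were -1.36 and -0.61. The part of these cell types in the GIMAP changes was not tested.

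Markers of the remaining cell types were counted beside the same shares of all genes. In tumor 12 of 14 thymic epithelial, 7 of 8 dendritic cell, 6 of 7 neutrophil and 1 of 10 macrophage markers (Mertk) fell, and 5 of 9 fibroblast markers rose (Col1a1, Col1a2, Col3a1, Fbln1 and Postn). In resistant tumor 12 thymic epithelial markers fell, as did 5 of dendritic cells (Flt3, Cd83, Ccl22, Batf3 and Irf8), 4 of neutrophils (S100a8, S100a9, Ngp and Camp), Mertk and the fibroblast gene Dcn, and 6 fibroblast markers and the epithelial gene Cldn3 rose. Several markers that fell were dim on all arrays of both tumor groups, here named after their values were seen. They were Flt3, Cd83, Siglech, Ccl22, Batf3, Ngp, Camp, Mpo, Psmb11, Foxn1, Pax1 and Aire. These passed the filter only through normal thymus, so their calls are no separate support. The summed signal of thymic epithelial markers was 10020 to 10640 in normal thymus, 1128 to 1725 in tumor and 1385 to 1750 in resistant tumor. Their part in the GIMAP changes was not tested either.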

How the data were processed

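The authors deposited a linear intensity for every probe set on each array. MAS5 is the tool named, per the submitters' processing notes, and the sources used here give no version, scaling target or detection calls. The trimmed mean of every array, leaving out 2% at each end, was 100.03, the form of a global scaling. RNA was extracted with Trizol and labelled with biotin, per the labels' protocols.

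Signals under 1 were raised to 1 before taking log2, and no other normalization was applied. Probe sets had to reach the array median on 3 or more arrays, and the one with the highest mean stood for its gene: 20917 of 34945 probe sets with 1 symbol passed, giving 11671 genes. A second fit used all 34945 with no filter. In limma 3.58.1 (R 4.3.3) all 9 arrays entered 1 model of group means with an intensity trend, leaving 6 residual degrees of freedom, and p-values were adjusted by Benjamini-Hochberg over each whole table. The threshold for a call was an adjusted p of 0.05. Probe sets with several symbols (932) or none listed (9160) and 64 control rows stayed out. A lower bound compares, as means of log2 values, the brighter group with, over the arrays of the dimmer group, the higher of the signal and the array median.

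On tumor 1 the control rows were ordered differently (correlation with the other arrays -0.295 as deposited, 0.907 after sorting by name), so its spike-in set was read after sorting. Same-numbered arrays of normal thymus and tumor deviated together (correlations 0.654, 0.371 and 0.411 over genes), and in these 2 groups number 1 is the array lacking spike-ins. Differently numbered arrays of the same spike-in set did so as well. Normal thymus 3 and tumor 2 had 0.449, and normal thymus 2 and tumor 3 had 0.362. Every correlation between arrays of different sets was negative. The labels do not state a pairing, and other same-numbered pairs reached as low as -0.337.

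The members, the 14 gene lists, the motifs and the alternatives were chosen with earlier results of these data known. Named are every member and probe set, 8 genes by likeness to the GIMAP profile, up to 4 called genes per pathway list, the 5 nearest protein-coding genes on each side, and genes marked in the text as named after their values were seen. No other symbol starting with Gimap was in the gene table. Gene order and promoters are from RefSeq GRCm38.p6. Alternatives changed the normalization, filter, probe set rule, trend, groups in the fit, blocks and arrays. The fit was tested on simulated data. Figures were drawn with matplotlib 3.10.9 (Python 3.11.15).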

Additional observations from a re-analysis of the deposited data

How the results depend on the processing

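The 8 GIMAP genes kept their fall against normal thymus, and their calls, in both comparisons under every alternative in which they were tested: quantile normalization, equal array medians, an offset of 50, no filter, a filter at the 75th percentile, the mean over probe sets, no intensity trend, only the groups compared, the replicate block, blocking on spike-in set, and each array left out. The 75th percentile filter left 6 of the 8 genes to test. The offset gave the smallest changes, up to -0.57 for Gimap5 in tumor and -0.59 in resistant tumor. Counts of GIMAP genes called stayed at 8 with each array left out, and counts of probe sets at 10 to 11. Equal array medians left 9 probe sets called in tumor, without Gimap5 and the brighter Gimap4 probe set (adjusted p = 0.0794 and 0.0579). With only the groups compared, the Gimap3 probe set lost its call in resistant tumor (adjusted p = 0.0543). With the replicate block all 8 genes were called against normal thymus and 0 between the tumor groups, and it changed no call of a GIMAP gene. Blocking on spike-in set, 1 GIMAP gene, Gimap6, was called between the tumor groups in the gene fit, but no GIMAP probe set was called in the fit of all probe sets.

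Over all genes, equal array medians left 2285 calls in tumor and 2035 in resistant tumor against normal thymus, in place of 4943 and 5049, moved the median change of all genes in tumor from 0.05 to 0.24 and between the tumor groups from -0.02 to -0.26, and took the higher calls from 53.4% to 43.1% of calls in resistant tumor against normal thymus and from 35.7% to 22.2% between the tumor groups. The 42 genes called between the tumor groups became 18 with equal array medians, 22 with no filter, 23 with the stricter filter, 27 with the mean over probe sets, 8 with only the groups compared, 92 with the replicate block, 143 when blocking on spike-in set, and 8 to 70 with 1 array left out. Against normal thymus, leaving out 1 array gave 3878 to 5374 calls in tumor and 3818 to 5310 in resistant tumor. The causes were not tested. Signals near the array median limit Gimap3, Gimap5 and Gimap7 most, and the tumor signals of Gimap8 also lay near it.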
